A study of Mus musculus with 36 samples.

Results

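miR-192, miR-194, miR-215 and miR-802 are microRNAs (miRNAs) known from epithelial tissues, among them the tubules of the kidney, and 6 of their mature forms were followed here: mmu-miR-192-5p, mmu-miR-192-3p, mmu-miR-194-5p, mmu-miR-194-2-3p, mmu-miR-215-5p and mmu-miR-802-5p, written from here on without the prefix for mouse. They were picked by name from the 1915 mature miRNAs of the deposited count table, by a rule that uses no values. Earlier results of these data were known when the choice was made. MicroRNA sequencing had been carried out by the study on total RNA of whole mouse kidneys (C57BL/6 background), in 36 libraries that form 12 groups of 3. In the Pkd1 model (called Pkd1 kidneys) the control groups, called WT, carried Pkd1f/f (exons of Pkd1 between loxP sites) and no Cre, and the KO groups carried Pkd1f/f:HoxB7-Cre. In the Pkd2 model (Pkd2 kidneys) WT was Pkd2f/f (exons of Pkd2 between loxP sites) and KO was Pkd2f/f:HoxB7-Cre. Each was sampled at postnatal days 1, 3 and 7 (P1, P3, P7). Controls were littermates of the same age, so the floxed alleles are common to WT and KO of a model and the Cre transgene is not. HoxB7-Cre acts in the collecting duct, whereas the library holds RNA of every cell of the kidney. The labels give neither sex nor batch, and nothing says how many animals a library holds, so p-values measure the spread between these libraries.

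A miRNA is cut from a hairpin, which can give a mature strand from its 5′ arm (5p) and another from its 3′ arm (3p), and the strand that is loaded into Argonaute pairs with target mRNAs mainly through its seed, bases 2 to 8. Mir192 and Mir194-2 form a cluster on one chromosome, and Mir215 and Mir194-1 a related cluster on another. In the kidney the family of miR-192, miR-194 and miR-215 is known for its abundance in the tubular epithelium and for transcription under HNF1 factors, genes of which are mutated in cystic kidney disease. miR-802 lies alone, and is known from liver and kidney.

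The mature sequences are shown because they define which reads belong to which member and which members share a seed. All 6 matched the RefSeq miRNA table (GRCm38.p6). Capitals mark the seed.
miR-192-5p: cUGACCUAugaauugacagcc
miR-215-5p: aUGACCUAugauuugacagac
miR-192-3p: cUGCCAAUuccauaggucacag
miR-194-5p: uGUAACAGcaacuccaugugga
miR-194-2-3p: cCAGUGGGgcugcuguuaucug
miR-802-5p: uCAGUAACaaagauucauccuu

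miR-192-5p and miR-215-5p have the same seed, and no other of the 1679 mature miRNAs in that table has it. Counted from 1 at the 5′ end of miR-192-5p, they differ at 3 of 21 positions, C1A, A12U and C20A, none of which is in the seed. The seeds of miR-192-3p, miR-194-5p and miR-802-5p occur in no other mature miRNA of the table, and that of miR-194-2-3p occurs in 2 others, miR-6926-5p and miR-7055-5p. So the 6 members carry 5 different seeds.

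Mir194-2 (chr19:6264643-6264728) and Mir192 (chr19:6264844-6264932) lie on the plus strand of mouse chromosome 19 with 115 bases between them. Mir194-1 (chr1:185313319-185313385) and Mir215 (chr1:185313581-185313692) lie on the plus strand of chromosome 1 with 195 bases between them. On that strand the GENCODE annotation places Mir194-1 in an intron and Mir215 in an exon of the non-coding gene 2010103J01Rik, and both are within an intron of Iars2 on the opposite strand. Mir802 (chr16:93369720-93369816, plus strand), like Mir192 and Mir194-2, overlaps no other annotated gene.

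The 6 members held between 0.261% and 2.62% of a library's reads (median 0.930%). miR-192-5p alone made up 95.6% of their reads and ranked 11 among all mature miRNAs by total reads, with 30958 to 626577 reads in a library. miR-194-5p followed with 3.64% of the members' reads (1164 to 23566 in a library) and miR-802-5p with 0.664% (150 to 4872). The remaining members rested on few reads. miR-215-5p had 11 to 981 reads in a library, miR-192-3p 14 to 156 and miR-194-2-3p 6 to 122. Every member had reads in all 36 libraries, and all 6 passed the filter on low counts (at least 10 reads in at least 3 libraries). The partner strands that are not members differed: miR-802-3p had 33 to 1318 reads in a library and was tested, whereas miR-215-3p had 43 reads and miR-194-1-3p had 8 reads in all 36 libraries together and were not.

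Both Mir194 hairpins encode the same miR-194-5p, and its reads cannot be assigned to either. The table lists it under both, and the row under Mir194-1 held 65.6% to 89.9% of the reads of the row under Mir194-2 in the same library. The row under Mir194-2 was used, since its total is the higher. The 3p strands do differ between the hairpins, at G8A, U19C, C20U and G22C from miR-194-2-3p to miR-194-1-3p, and there the reads were 2114 for Mir194-2 against 8 for Mir194-1. How many mismatches were allowed in counting is not given in the sources used here, so the split of reads between miR-192-5p and miR-215-5p is uncertain to that extent.

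Library totals ran from 12569939 to 32663566 reads. Levels are given in CPM, the reads of a miRNA scaled to a library size that was corrected by trimmed mean of M values (TMM) factors over all 36 libraries, and 3 reads, taken as the detection floor, correspond to 0.0593 to 0.471 CPM. Both miR-10 strands, miR-10a-5p and miR-10b-5p, took 31.4% to 81.0% of the reads of a library, and TMM factors ran from 0.395 to 2.41, so levels depend on the scaling. As a check of tissue, the tubule miRNA miR-204-5p was at 361 to 1220.0 CPM, and miR-216a-5p, miR-216b-5p and miR-217-5p of the pancreas reached at most 0.465, 0.189 and 0.518 CPM. miR-375-3p, the fourth of that list and a miRNA of endocrine cells, was not near 0, with 15.9 to 469 CPM and a median of 61.2 CPM. The liver miRNA miR-122-5p had a median of 8.26 CPM but reached 274 CPM in Pkd2 P1 WT replicate 3. Pkd1 P1 WT replicate 1 stood apart for its summed muscle miRNAs, 1563 CPM against 18.4 and 54.3 CPM in the other WT libraries of that age. It also had 376 CPM of miR-375-3p, against 46.3 and 69.9 CPM in replicates 2 and 3. The ageing results are also given without these libraries. Without them, none of 31 log2 fold changes of KO at P1 or differences of KO effects passed (lowest edgeR adjusted p 0.250) and 2 changed sign, both of miR-215-5p in Pkd2 kidneys, and none of 20 ratio tests passed (lowest permutation adjusted p 0.225).

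**Figure D1:**
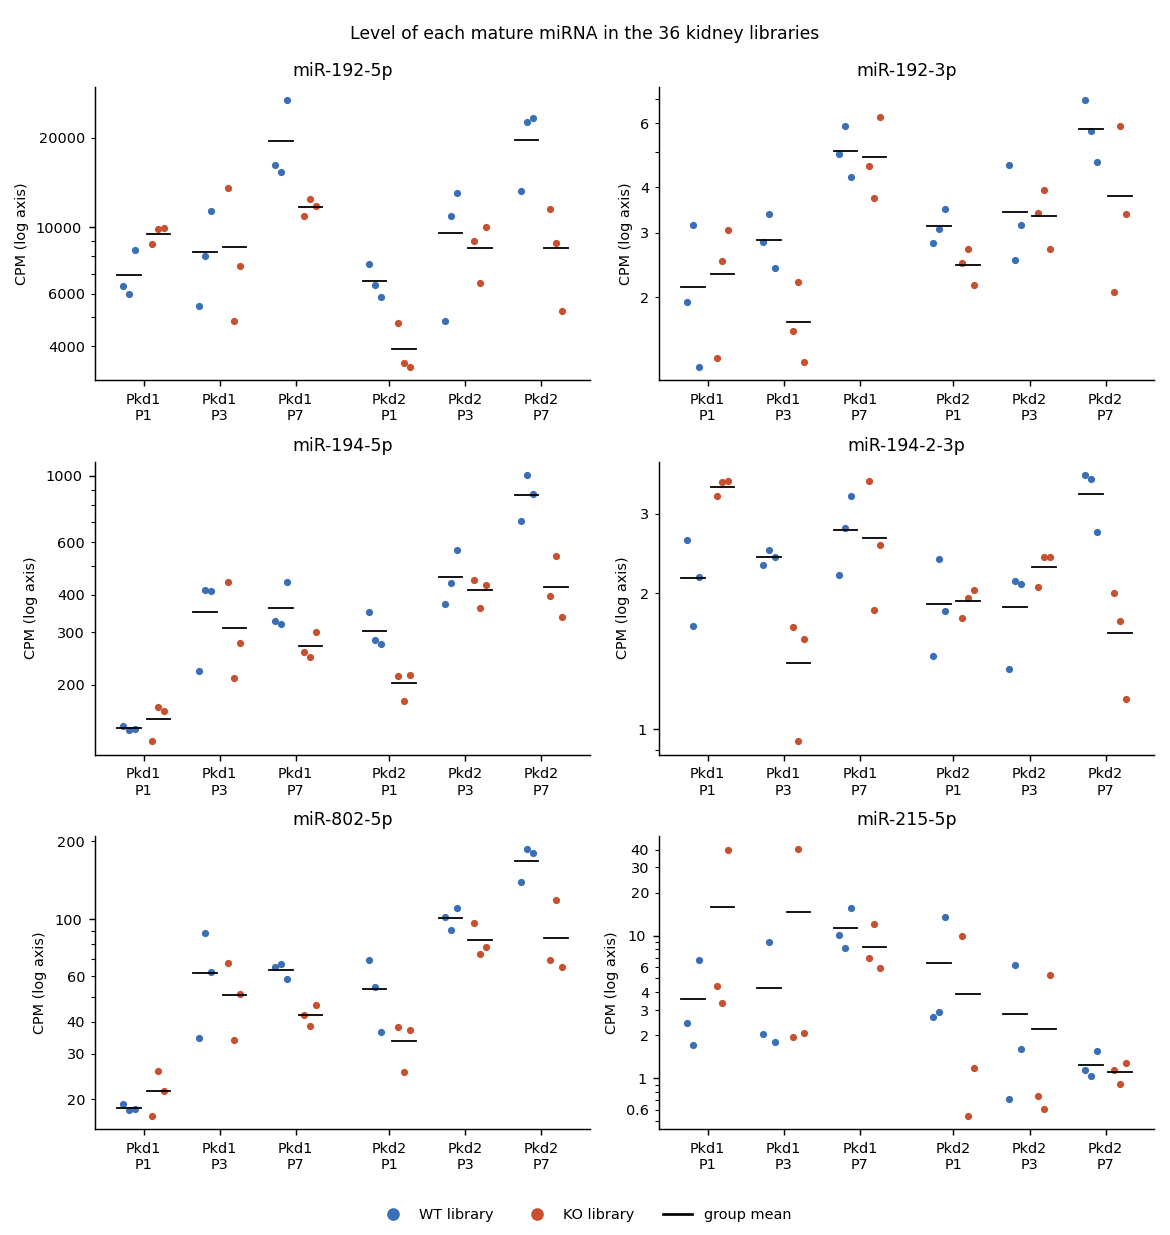
Levels of the 6 members in CPM on log axes, 1 point per library (blue WT, red KO, 3 per group) with the group mean as a line, by model and age. At P7 every KO library is below every WT library for miR-192-5p, miR-194-5p and miR-802-5p, and miR-215-5p reaches 39.9 and 40.2 CPM in single KO libraries of the Pkd1 model.

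Comparing the WT kidneys of P7 with those of P1 asked how the members change as the kidney matures. miR-192-5p, miR-194-5p and miR-802-5p all rose in both models, to between 2.69 and 3.65 times their level at P1. In Pkd1 kidneys 4 of the 6 members rose and none fell, where 10.3% of the 706 miRNAs tested rose and 21.5% changed in either direction. In Pkd2 kidneys 4 of 6 rose, against 11.4% of 746, with 28.3% changed in either direction. The median log2 fold change of the members was 1.49 in Pkd1 kidneys and 1.12 in Pkd2 kidneys, beside -0.03 and -0.06 over all miRNAs tested.

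miR-192-5p, the most abundant strand of the family, was at 6363, 5986 and 8414 CPM in the WT libraries of the Pkd1 model at P1 and at 16212, 15384 and 26676 CPM at P7. The groups did not overlap, and the log2 fold change was 1.56 (SE 0.35, edgeR adjusted p = 0.00632). In Pkd2 kidneys it was at 7527, 6387 and 5853 CPM at P1 and at 13210.5, 22549 and 23179 CPM at P7, again with no overlap (log2 fold change 1.49, SE 0.35, edgeR adjusted p = 0.00433). The WT means were close in the 2 models, which was not tested, at 6921 ± 1307 and 6589 ± 855 CPM at P1 and 19424 ± 6294 and 19646 ± 5582 CPM at P7 (SD, n = 3).

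miR-194-5p, encoded in both clusters, was at 146, 141 and 142 CPM at P1 and at 327, 319.8 and 440.4 CPM at P7 in the WT libraries of the Pkd1 model. The increase was 1.43 on the log2 scale (SE 0.28, edgeR adjusted p = 0.00356). In Pkd2 kidneys the values were 351, 281 and 273 CPM at P1 and 707, 1009 and 872 CPM at P7, an increase of 1.43 (SE 0.21, edgeR adjusted p = 0.000236). The increases were the same to 2 decimals, but at P1 and at P7 every WT library of the Pkd2 model lay above every WT library of the Pkd1 model of that age, a difference that was not tested. At P3 the WT libraries of the models overlapped.

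miR-802-5p had the largest fitted increase of the members in both models. It went from 19.1, 18.2 and 18.3 CPM to 65.2, 66.6 and 58.6 CPM in Pkd1 kidneys (log2 fold change 1.87, SE 0.31, edgeR adjusted p = 0.00128). In Pkd2 kidneys it went from 69.5, 54.4 and 36.5 CPM to 139, 186 and 180.2 CPM (log2 fold change 1.58, SE 0.28, edgeR adjusted p = 0.000685). Its partner strand miR-802-3p rose alongside, by 1.96 (SE 0.38, edgeR adjusted p = 0.00302) and 1.92 (SE 0.34, edgeR adjusted p = 0.000748).

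The 3p strands of the cluster changed less evenly. miR-192-3p rose in Pkd1 kidneys, from 1.94, 3.15 and 1.29 CPM to 4.94, 5.89 and 4.27 CPM (log2 fold change 1.35, SE 0.36, edgeR adjusted p = 0.0174). In Pkd2 kidneys its log2 fold change of 0.80 had an edgeR adjusted p of 0.0606, although the groups did not overlap. miR-194-2-3p rose in Pkd2 kidneys, from 1.45, 2.39 and 1.83 CPM to 3.66, 3.58 and 2.74 CPM (log2 fold change 0.73, SE 0.25, edgeR adjusted p = 0.0378), and in Pkd1 kidneys its log2 fold change was 0.42 (edgeR adjusted p = 0.329).

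The scaling bore on these increases. Without TMM factors, that is with library totals alone, the median miRNA fell by 0.68 on the log2 scale in Pkd1 kidneys and by 0.78 in Pkd2 kidneys, and none of the 6 members passed the threshold in either (edgeR adjusted p from 0.0546 to 0.978). Relative to those medians miR-192-5p was at 1.70 and 1.62, miR-194-5p at 1.5 and 1.53 and miR-802-5p at 1.84 and 1.69, while miR-194-2-3p went below 0 before the median was taken off (-0.23 and -0.03). Other lists moved with age too. In Pkd1 kidneys the 5 muscle miRNAs tested fell (sums of 18.4, 54.3 and, in replicate 1, 1563 CPM at P1 and of 35.95 to 53.3 CPM at P7) and 4 of 5 leukocyte miRNAs rose (177 to 231 CPM and 314 to 496 CPM), and in Pkd2 kidneys both liver miRNAs fell (9.496 to 289 CPM and 0.999 to 2.96 CPM). Of the 20 miRNAs of a nephron and kidney epithelium list, which holds no member, 5 of 19 tested rose in Pkd1 kidneys and 8 of 20 in Pkd2 kidneys, with medians of 0.56 and 0.73. The part of these in the members' increase was not tested. Without Pkd1 P1 WT replicate 1, the library with muscle miRNAs, 3 members rose in Pkd1 kidneys, and miR-192-3p had an edgeR adjusted p of 0.0511. Without Pkd2 P1 WT replicate 3, the library with miR-122-5p, 3 rose in Pkd2 kidneys, and miR-194-2-3p had an edgeR adjusted p of 0.105.

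The same comparison gave miR-215-5p opposite signs in the 2 models. In Pkd1 kidneys it went from 2.43, 1.70 and 6.68 CPM to 10.2, 8.21 and 15.6 CPM, and in Pkd2 kidneys from 2.69, 2.89 and 13.6 CPM to 1.14, 1.04 and 1.55 CPM. The groups did not overlap in either model, as was the case for 33.3% of all miRNAs in Pkd1 kidneys and 50% in Pkd2 kidneys. The log2 fold changes of 1.71 (SE 1.13, edgeR adjusted p = 0.291) and -2.42 (SE 1.08, edgeR adjusted p = 0.107) did not pass the threshold. The test of the difference between models gave -4.01 (SE 1.66, edgeR adjusted p = 0.637), and without Pkd2 P1 WT replicate 3 the change in Pkd2 kidneys was -1.23.

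The comparison of KO with WT at each age asked how the loss of Pkd1 or Pkd2 in the collecting duct goes with these tubule miRNAs. In Pkd2 kidneys at P7, miR-192-5p, miR-194-5p, miR-194-2-3p and miR-802-5p were lower in KO than in WT, to between 0.457 and 0.524 of the WT level. These were 4 of the 6 members, where 3.62% of the 746 miRNAs tested fell and 12.6% changed in either direction. In the same 4 every KO library was below every WT library, as in 12.1% of all miRNAs. The median log2 fold change of the members was -0.94, beside 0.02 over all miRNAs tested. In whole kidneys fewer cells of a type and less RNA per cell cannot be told apart.

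In the WT libraries of the Pkd2 model at P7, miR-192-5p was at 13210.5, 22549 and 23179 CPM, and in the KO libraries at 11503, 8843 and 5244 CPM. Every KO library was below every WT library, although KO replicate 1 and WT replicate 1 lay close. The log2 fold change was -1.13 (SE 0.34, edgeR adjusted p = 0.0392). The KO mean of 8530.1 ± 3141 CPM lay between the WT means of that model at P1 (6589 ± 855 CPM) and P3 (9584 ± 4237 CPM).

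miR-194-5p was at 707, 1009 and 872 CPM in WT and at 397, 538 and 338 CPM in KO. The groups were well apart, and the fitted change was -0.95 on the log2 scale (SE 0.21, edgeR adjusted p = 0.0147), the lowest adjusted p of the members. Its 3p strand from Mir194-2, miR-194-2-3p, went from 3.66, 3.58 and 2.74 CPM in WT to 2.005, 1.73 and 1.17 CPM in KO, on 23 to 83 reads a library, and the change was also -0.95 (SE 0.26, edgeR adjusted p = 0.0232).

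miR-802-5p, from a chromosome of its own, was at 139, 186 and 180.2 CPM in WT and at 69.2, 118 and 64.9 CPM in KO (log2 fold change -0.93, SE 0.27, edgeR adjusted p = 0.0314). miR-802-3p was at 32.8, 47.2 and 48.8 CPM in WT and at 21.2, 19.9 and 17.1 CPM in KO (log2 fold change -1.08, SE 0.33, edgeR adjusted p = 0.0425). KO replicate 2 was the highest KO library for miR-194-5p and miR-802-5p but not for miR-192-5p or miR-802-3p.

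The 2 members that did not pass were miR-192-3p and miR-215-5p. miR-192-3p was at 6.94, 5.69 and 4.70 CPM in WT and at 2.06, 5.88 and 3.39 CPM in KO, so that 1 KO library lay among the WT libraries (log2 fold change -0.58, SE 0.31, edgeR adjusted p = 0.246). miR-215-5p was between 0.905 and 1.55 CPM in all 6 libraries, on 12 to 42 reads, with a log2 fold change of -0.10 and a wide error (SE 1.12, edgeR adjusted p = 0.963).

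These calls depended on the scaling and on single libraries. With library totals alone the 4 log2 fold changes were -1.14, -1.05, -0.90 and -1.10 and none passed (edgeR adjusted p from 0.142 to 0.345). None of the 6 members passed without WT replicate 2, without WT replicate 3 or without KO replicate 3, 2 passed without WT replicate 1, and 1 passed when only the 6 libraries compared were fitted. How many of all miRNAs passed in those fits is not given here. A loss of calls among the members therefore cannot be told from a loss over all miRNAs.

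**Figure D2:**
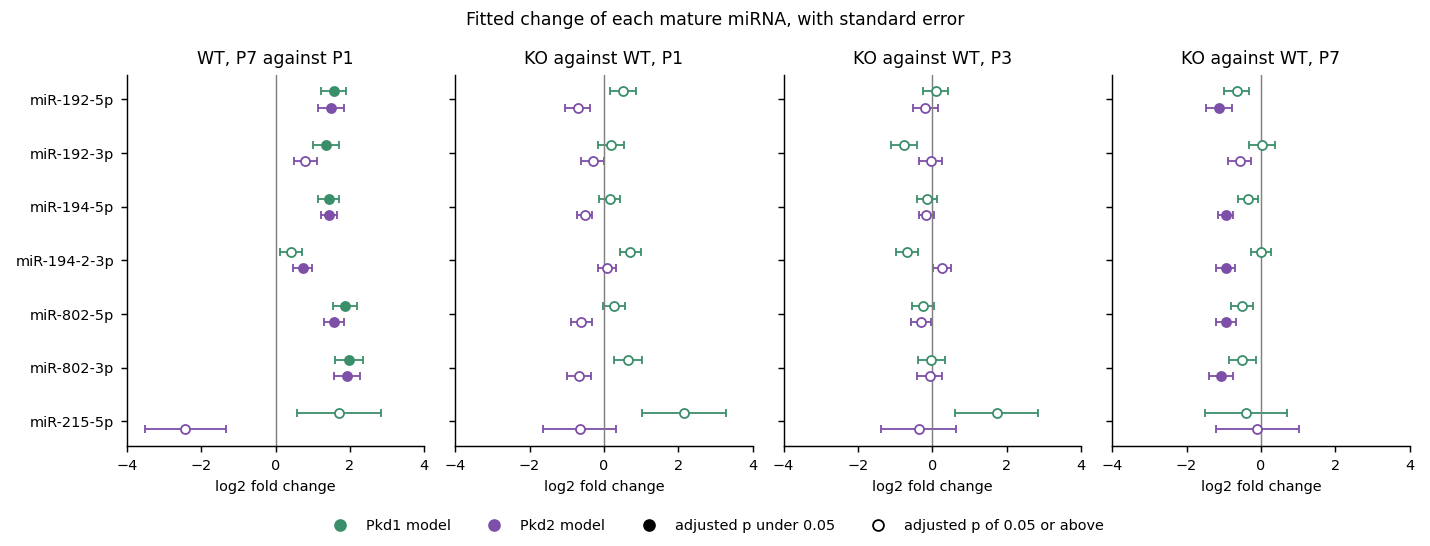
Fitted log2 fold change (horizontal axis) with its SE for the 6 members and miR-802-3p, in WT at P7 against P1 and in KO against WT at P1, P3 and P7. Green is the Pkd1 model and purple the Pkd2 model, and filled points have an adjusted p under 0.05. The filled points are in the panels for WT ageing and, in Pkd2 kidneys, for KO at P7, where miR-192-5p is at -1.13.

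Other miRNAs moved with that comparison. Of the same 20 miRNAs of nephron and kidney epithelium, 1 fell in KO of the Pkd2 model at P7 and none rose. It was miR-204-5p (log2 fold change -0.92, SE 0.21, edgeR adjusted p = 0.0159), a tubule miRNA hosted in Trpm3, and the list's median was -0.12. In Pkd1 kidneys none of 19 passed, with a median of -0.12. Of 10 miRNAs of epithelia in general, 5 rose and none fell. miR-141-3p (0.82, SE 0.20, edgeR adjusted p = 0.0163) and miR-200c-3p (0.87, SE 0.22, edgeR adjusted p = 0.0175), of the miR-200 family that restrains ZEB1 and ZEB2, and miR-182-5p (1.38, SE 0.32, edgeR adjusted p = 0.0159) and miR-183-5p (1.04, SE 0.31, edgeR adjusted p = 0.0371), of 1 cluster, were among them. In Pkd1 kidneys 2 of the 10 rose, miR-182-5p (1.06, edgeR adjusted p = 0.0482) and miR-183-5p (1.28, edgeR adjusted p = 0.00389). The fifth in Pkd2 kidneys was miR-205-5p (2.87, SE 0.72, edgeR adjusted p = 0.0175), whose KO and WT libraries overlapped.

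A list of 7 miRNAs linked to p53, which holds miR-192-5p, miR-194-5p and miR-215-5p themselves, had miR-192-5p and miR-194-5p lower and 1 other higher, the direct p53 target miR-34a-5p (log2 fold change 1.23, SE 0.27, edgeR adjusted p = 0.0147). Among markers of other cell types, all 4 erythroid miRNAs were above 0, and their summed level was 3510 to 5654 CPM in KO against 2243 to 2722 CPM in WT. miR-144-5p, from an erythroid cluster, passed (1.13, SE 0.29, edgeR adjusted p = 0.0204). Both endothelial miRNAs were below 0 without passing, with sums of 10550 to 15600 CPM in KO and 15570 to 23720 CPM in WT. Of skeletal and cardiac muscle miRNAs, 5 of 5 tested were above 0 and none passed, with sums of 26.8 to 106.8 CPM in KO and 18.7 to 19.6 CPM in WT. Both liver miRNAs were above 0 and did not pass (sums of 2.64 to 14.6 CPM in KO and 0.999 to 2.96 CPM in WT). None passed among markers of leukocytes, smooth muscle and stroma, pancreas or collecting duct. The miR-10 share was 66.4%, 47.9% and 42.8% in the WT libraries and 41.1%, 74.1% and 57.4% in the KO libraries. With that share as a covariate, an alternative added after the data were seen, 5 of 6 members fell. How many of all miRNAs were called in that fit is not given here. The part of the cell type markers in the decrease was not tested.

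In Pkd1 kidneys at P7 none of the 6 members passed, where 0.425% of 706 miRNAs did, all of them higher. The 3 abundant members were still lower in every KO library. miR-192-5p was at 16212, 15384 and 26676 CPM in WT and at 10931, 12449.5 and 11804 CPM in KO (log2 fold change -0.65, SE 0.34, edgeR adjusted p = 0.567). miR-194-5p was at 327, 319.8 and 440.4 CPM in WT and at 257.5, 248 and 301 CPM in KO (-0.35, SE 0.28, edgeR adjusted p = 0.768).

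miR-802-5p was at 65.2, 66.6 and 58.6 CPM in WT and 42.3, 38.5 and 46.6 CPM in KO (-0.51, SE 0.30, edgeR adjusted p = 0.641). Groups without overlap in which KO was lower made up 10.2% of all miRNAs in this comparison, against 3 of the 6 members. The low-count members overlapped: miR-192-3p had a log2 fold change of 0.03, miR-194-2-3p of -0.00 and miR-215-5p of -0.40. At an unadjusted p under 0.05, which 10.2% of all miRNAs had, none of the 6 members passed either, nor did any by DESeq2 adjusted p.

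The difference between the models at P7 was tested directly. The KO effect in Pkd2 kidneys minus that in Pkd1 kidneys was below 0 for 5 of 6 members, from -0.92 for miR-194-2-3p to -0.42 for miR-802-5p, and 0.30 for miR-215-5p. None passed the edgeR adjusted p (1 of 6 had an unadjusted p under 0.05, as 12% of all miRNAs did, and none passed by DESeq2), which was lowest for miR-194-2-3p at 0.371 (SE 0.37), in a test that called 0.387% of 775 miRNAs. miR-192-5p gave -0.48 (SE 0.49, edgeR adjusted p = 0.689) and miR-194-5p -0.59 (SE 0.34, edgeR adjusted p = 0.472), and miR-192-3p was at -0.58. So the decrease in Pkd2 kidneys is not shown to differ from that in Pkd1 kidneys.

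At P1 and P3 none of the 6 members passed in either model, as was so for all miRNAs tested (0% called by edgeR in each of the 4 comparisons). At an unadjusted p under 0.05 there were 1 member at P1 and 2 members at P3 among Pkd1 kidneys, where 8.36% and 9.07% of all miRNAs were under it. Among Pkd2 kidneys there were 2 members at P1 and 0 at P3, beside 5.5% and 1.47% of all miRNAs. None passed by DESeq2. The signs at P1 were opposite between the models for 5 of the 6 members, and miR-194-2-3p was above 0 in both. In Pkd1 kidneys all 6 members were above 0, and miR-192-5p was at 8807, 9863 and 9914 CPM in KO against 6363, 5986 and 8414 CPM in WT (log2 fold change 0.51, SE 0.34, edgeR adjusted p = 0.616). There 2 of 6 members, miR-192-5p and miR-194-2-3p, had groups without overlap, beside 18.1% of all miRNAs. The log2 fold changes of the others were 0.20 for miR-192-3p, 0.15 for miR-194-5p, 0.26 for miR-802-5p and 2.15 for miR-215-5p.

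In Pkd2 kidneys at P1, 5 of 6 were below 0. miR-192-5p was at 4789, 3517 and 3410.1 CPM in KO against 7527, 6387 and 5853 CPM in WT (-0.70, SE 0.34, edgeR adjusted p = 0.899), and miR-194-5p at 214, 176 and 216 CPM in KO against 351, 281 and 273 CPM in WT (-0.52, SE 0.21, edgeR adjusted p = 0.886). miR-802-5p was at 38.3, 25.4 and 37.2 CPM in KO against 69.5, 54.4 and 36.5 CPM in WT, with 1 WT library among the KO libraries (-0.61, SE 0.27, edgeR adjusted p = 0.886). miR-192-3p was lower in every KO library (2.48, 2.71 and 2.16 CPM against 2.82, 3.08 and 3.49 CPM in WT, -0.31, SE 0.31, edgeR adjusted p = 0.982), and the log2 fold changes were 0.07 for miR-194-2-3p and -0.65 for miR-215-5p. So 3 of 6 members had groups without overlap, beside 13.4% of all miRNAs. The order was therefore KO below WT for miR-192-5p and miR-194-5p at P1 and at P7 in Pkd2 kidneys, and at P3 the groups overlapped, with log2 fold changes of -0.19 and -0.17. The other members also overlapped at P3, at -0.05 for miR-192-3p, 0.26 for miR-194-2-3p, -0.31 for miR-802-5p and -0.37 for miR-215-5p. Cell type markers were apart at P1 too. Smooth muscle and stroma sums were 50770 to 56040 CPM in KO and 35280 to 43650 CPM in WT of the Pkd1 model. In the Pkd2 model they were 29670 to 34330 CPM and 34830 to 40840 CPM. Erythroid sums in the Pkd1 model were 2549 to 3140 CPM in KO and 3549 to 4980 CPM in WT. The part of these markers was not tested.

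miR-194-2-3p changed sign within Pkd1 kidneys. It was at 3.28, 3.52 and 3.54 CPM in KO at P1 against 2.63, 1.70 and 2.17 CPM in WT, and at 1.69, 0.941 and 1.58 CPM in KO at P3 against 2.31, 2.50 and 2.40 CPM in WT. The log2 fold changes were 0.71 (SE 0.28, edgeR adjusted p = 0.466) and -0.69 (SE 0.29, edgeR adjusted p = 0.488), on 6 to 104 reads. For miR-194-5p, whose groups overlapped at both ages, the values were 0.15 and -0.15. miR-192-3p was lower in every KO library of the Pkd1 model at P3 without passing (log2 fold change -0.77, SE 0.35, edgeR adjusted p = 0.515). So 2 of 6 members, miR-192-3p and miR-194-2-3p, had groups without overlap at P3. The share of all miRNAs without overlap is not given here for P3, and at P1 it was 18.1% in this model. At P3 miR-192-5p was at 0.09, miR-802-5p at -0.25 and miR-215-5p at 1.72, all with overlap. The pancreas and endocrine list, nearly all of it miR-375-3p, was apart in the same comparison, with sums of 42.3 to 469.5 CPM in KO and 16.2 to 25.9 CPM in WT. So were the erythroid list (1598 to 4727 CPM in KO and 1399 to 1567 CPM in WT) and the leukocyte list (314.6 to 371.5 CPM and 209.8 to 304.6 CPM). No miRNA of these lists passed, and their part was not tested.

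The change of the KO effect from P1 to P7 (the P7 effect less the P1 effect) was below 0 for all 6 members in Pkd1 kidneys and for 5 of 6 in Pkd2 kidneys, with medians of -0.74 and -0.38 beside 0.09 and -0.01 over all miRNAs. None passed the edgeR adjusted p, in tests that called 0.142% and 0.536% of miRNAs, and none passed by DESeq2. In each model 1 member had an unadjusted p under 0.05, beside 12% and 16.9% of all miRNAs. The value was -1.16 for miR-192-5p in Pkd1 kidneys (SE 0.48, edgeR adjusted p = 0.389) and -1.02 for miR-194-2-3p in Pkd2 kidneys (SE 0.36, edgeR adjusted p = 0.163). The other values in Pkd1 kidneys were -0.17 for miR-192-3p, -0.51 for miR-194-5p, -0.71 for miR-194-2-3p, -0.77 for miR-802-5p and -2.56 for miR-215-5p. Those in Pkd2 kidneys were -0.43 for miR-192-5p and for miR-194-5p, -0.27 for miR-192-3p, -0.33 for miR-802-5p and 0.56 for miR-215-5p. The WT libraries at P1 and P7 enter both this difference and the comparison of ages.

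Ratios of reads within a library do not depend on library scaling, and 15 tests of them were made by exact two-sided permutation. KO and WT libraries were exchanged within each age of a model, and for WT ageing the P1 and P7 libraries within each model. None passed after Benjamini-Hochberg adjustment over the 15. The smallest p was 0.01 (adjusted 0.15, permutation test), for miR-194-5p to miR-194-2-3p in WT at P7 against P1, a rise of 0.82 on the log2 scale. The smallest p those arrangements allow is 0.005. This ratio was 65.7 at P1 and 129 at P7 in Pkd1 kidneys and 161 and 257 in Pkd2 kidneys (geometric means of 3).

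The miR-192-5p to miR-194-5p ratio, in which the miR-194-5p reads may come from either cluster, was apart between the models at P1 and P7 but not at P3. It ran from 39.3 to 68.2 over the 12 Pkd1 libraries at those ages and from 15.5 to 29.0 over the 12 Pkd2 libraries. At P3 it ran from 19.3 to 30.6 in Pkd1 kidneys and from 13.0 to 24.8 in Pkd2 kidneys. This was seen after the values were known and is given without a test, and models and any difference in library preparation cannot be told apart. The miR-10 share ran from 57.3% to 81.0% in the Pkd1 libraries of P1 and P7 and from 37.6% to 74.1% in those of the Pkd2 model, and its part was not tested. No difference of KO from WT in this ratio passed the threshold (0.10 and -0.11 on the log2 scale in the Pkd1 and Pkd2 models, permutation adjusted p = 0.673 and 0.682).

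miR-802-5p stayed between 0.129 and 0.274 of miR-194-5p in all 36 libraries. The KO minus WT difference of the log2 ratio was -0.04 in Pkd1 kidneys and -0.08 in Pkd2 kidneys (permutation adjusted p = 0.749 and 0.673). The 5p strand of Mir192 exceeded its 3p strand 1048 to 8323 times, with no difference between KO and WT past the threshold (0.16 and -0.33, permutation adjusted p = 0.740 and 0.673).

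**Figure D3:**
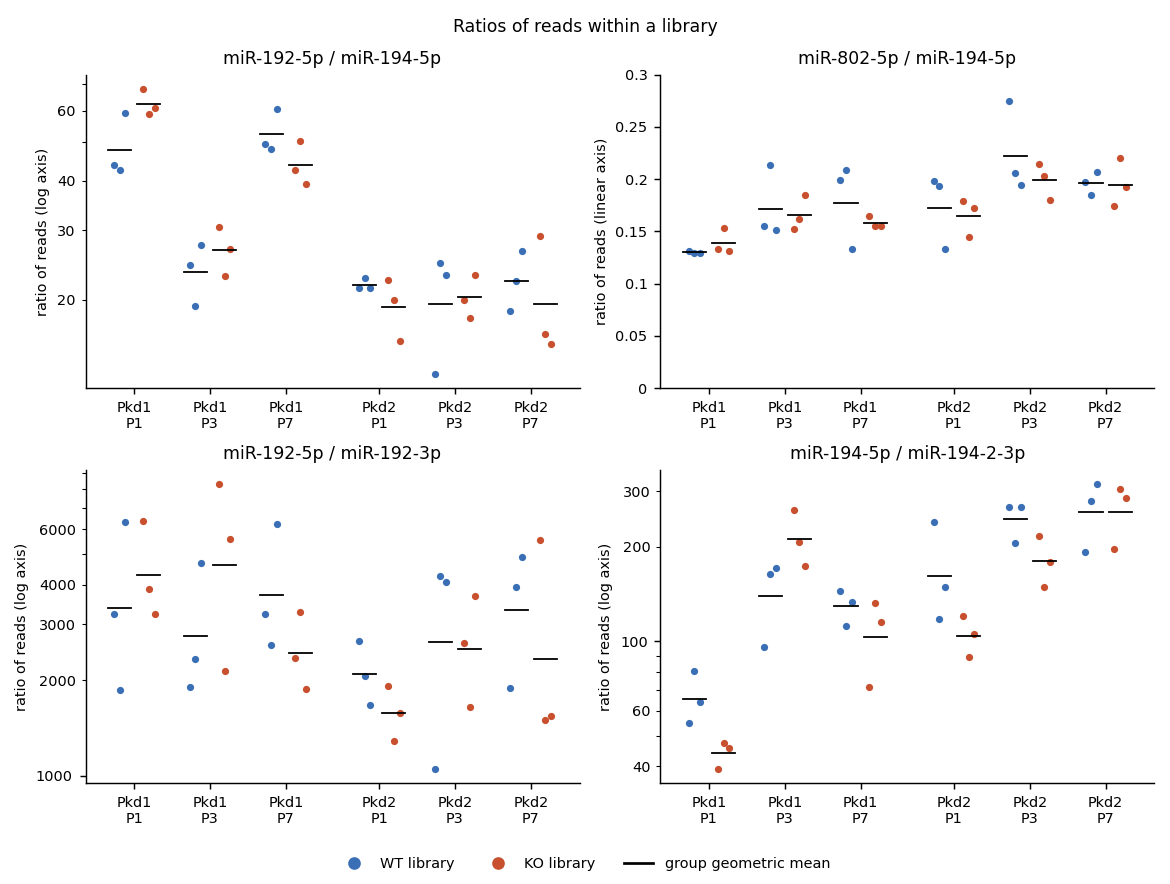
Ratios of reads within a library, 1 point per library (blue WT, red KO, n = 3 per group) with the geometric mean as a line, on log axes except for miR-802-5p to miR-194-5p. The miR-192-5p to miR-194-5p ratio is 39.3 to 68.2 in Pkd1 kidneys at P1 and P7 and at most 30.6 in every other group.

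Across the 36 libraries miR-194-5p and miR-802-5p ordered the libraries almost alike, although their genes lie on different chromosomes (Spearman rho = 0.95). miR-192-5p followed miR-194-5p less closely (rho = 0.57), and miR-194-2-3p hardly followed miR-194-5p at all (rho = 0.09). miR-215-5p was at -0.37 with miR-194-5p and 0.15 with miR-192-5p. These are descriptions over libraries that share groups, depth and scaling.

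**Figure D4:**
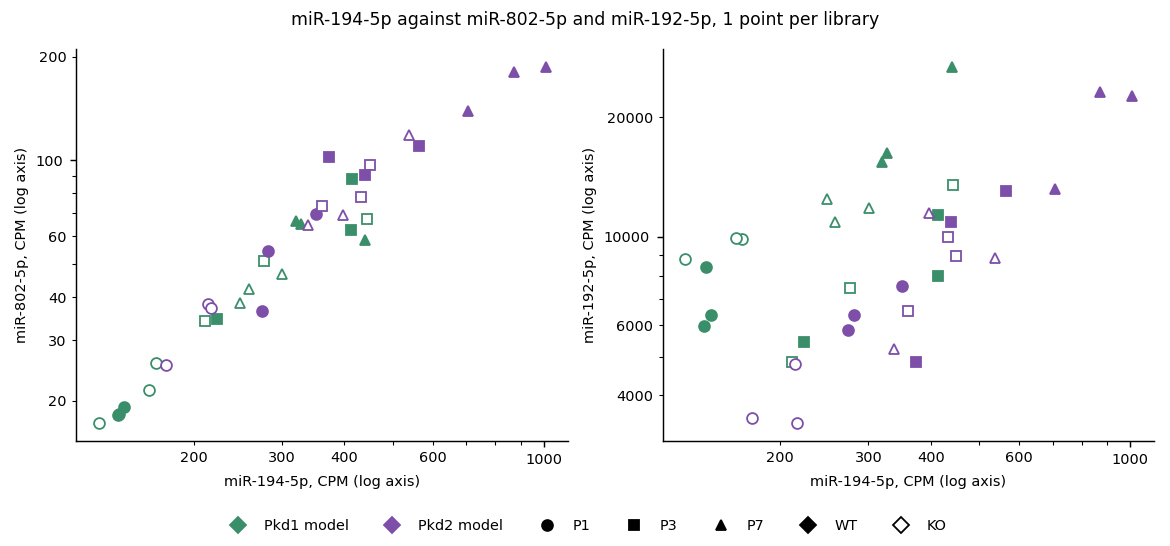
CPM of miR-802-5p (left) and miR-192-5p (right) against CPM of miR-194-5p on log axes, 1 point per library, coloured by model, shaped by age and filled for WT. miR-802-5p follows miR-194-5p along 1 line in both models (rho = 0.95), whereas for miR-192-5p (rho = 0.57) the Pkd1 libraries of P1 and P7 lie above the others.

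Among the 416 miRNAs with a mean of at least 100 reads, the patterns most like miR-192-5p over the 36 libraries were those of miR-101a-3p (rho = 0.949), miR-101c (0.898) and miR-204-5p (0.898). For miR-194-5p they were miR-30b-5p (0.887), miR-15a-5p (0.877) and miR-339-3p (0.851). For miR-802-5p they were miR-16-5p (0.896), miR-30b-5p (0.895) and miR-15a-5p (0.889). The miR-101c sequence lies within that of miR-101a-3p, so the reads of these miRNAs may be shared.

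The library with the highest miR-10 share was the lowest of its group for miR-192-5p and for miR-194-5p in 7 of 12 groups each, for miR-802-5p in 5 and for miR-194-2-3p in 4. For miR-192-3p it was so in 1 of 12 groups. For miR-215-5p it was 7 of 12. Of the tubule miRNAs that are no members, miR-204-5p gave 7 of 12 and miR-30a-5p 1 of 12. The opposite count, of groups where the library with the lowest miR-10 share was the highest, ordered the members otherwise. It was 8 of 12 for miR-194-2-3p, 7 for miR-192-5p, 5 for miR-194-5p and for miR-215-5p, 3 for miR-802-5p and 0 for miR-192-3p. miR-204-5p gave 8 and miR-30a-5p 0. With 3 libraries a group, values unrelated to the miR-10 share would also give some such groups. These counts were not tested, and those over all miRNAs are not given here.

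miR-215-5p stood apart from the other members at P1 and P3 by its spread between libraries of a group. At P7 in Pkd2 kidneys it did not, with an SD of 22.2% of the mean in WT and 16.8% in KO. For miR-192-5p these were 28.4% and 36.8%. Over all 36 libraries its median was 2.56 CPM, its lowest value 0.543 CPM and its highest 40.2 CPM. Pkd1 P3 KO replicate 2 had 40.2 CPM (256 reads) where the other KO libraries of that group had 1.95 and 2.06 CPM, and Pkd1 P1 KO replicate 3 had 39.9 CPM (981 reads) where the others had 4.42 and 3.37 CPM. Single libraries were also the highest of their group in Pkd2 kidneys, with 13.6 CPM in P1 WT replicate 3, 9.98 CPM in P1 KO replicate 1, 6.21 CPM in P3 WT replicate 2 and 5.30 CPM in P3 KO replicate 3.

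The high values were not shared by miR-192-5p, which has the same seed. miR-215-5p reads were 0.829% of miR-192-5p reads in Pkd1 P3 KO replicate 2 and 0.403% in Pkd1 P1 KO replicate 3, against a lowest share of 0.00469% in Pkd2 P7 WT replicate 2. miR-215-3p, from the same hairpin, had 4 and 5 reads in those 2 libraries and was at 0 in 20 of the 36. miR-122-5p, the liver marker, was at 11.8 and 7.48 CPM in these libraries, near its median of 8.26 CPM, and at 274 and 41.6 CPM in the high P1 libraries of the Pkd2 model. Pkd1 P3 KO replicate 2 did have 287 CPM of miR-375-3p, against a median of 61.2 CPM, and 16.0 CPM of miR-202-5p, a gonadal miRNA singled out after its values were seen, against a median of 0.0453 CPM. Replicate 3 of that group had more of both (469 and 27.0 CPM) with 2.06 CPM of miR-215-5p, and Pkd1 P1 KO replicate 3 had 37.5 and 0.0407 CPM. A WT library, Pkd1 P1 WT replicate 1, had 376 and 30.3 CPM with 2.43 CPM of miR-215-5p. The part of these markers was not tested. The fitted log2 fold changes of miR-215-5p in KO against WT were 2.15 at P1 (SE 1.14, edgeR adjusted p = 0.572) and 1.72 at P3 (SE 1.12, edgeR adjusted p = 0.693) in Pkd1 kidneys. Leaving out the high KO library of each age, they became 0.16 and -1.02.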

How the data were processed

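Small RNA libraries of whole mouse kidney were sequenced by the study in 36 samples. According to its methods, the authors removed the 3′ adaptor, dropped short reads and counted reads per miRNA with miRDeep2 (its version is not given in the sources used here) against miRBase and mm10; the submitters' processing notes also list CASAVA 1.8.2 and HTSeq. The deposited values are raw read counts, 1 row per mature miRNA and hairpin, and where a mature name had several rows the one with the highest total was used.

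miRNAs with at least 10 reads in at least 3 libraries were tested, that is 706 (Pkd1), 746 (Pkd2) and 775 (both models) miRNAs. KO was compared with WT at each age, and WT at P7 with P1, by the quasi-likelihood F-test of edgeR 4.0.16 (R 4.3.3) with TMM scaling, on the 18 libraries of a model in 1 fit, or on all 36 for differences between models. Benjamini-Hochberg adjustment ran across every miRNA in a fit, with a threshold of 0.05, and the SE was taken as the log2 fold change divided by the square root of F. DESeq2 1.42.0 was an alternative. Ratios were taken after 0.5 reads were added to each count and tested by exact permutation in Python 3.11.15. The scripts were tested on simulated data. A count near the floor of 3 reads has a large counting error.

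The members and lists were chosen with earlier results of these data known. All members are named at every comparison, as are miR-802-3p, miR-194-1-3p and miR-215-3p, the 3 most similar patterns for each abundant member, and, of the other lists, miRNAs that passed in KO against WT at P7 or mark a cell type in a library that stands apart. Other scalings, no filter, summed hairpin rows, a replicate block, the miR-10 share as a covariate, fits of only the groups compared and leaving out each library were tried.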

Additional observations from a re-analysis of the deposited data

Results flagged for a closer look

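In 4 cases all libraries of a group moved one way in one contrast and the opposite way in its counterpart, and the difference itself was then tested with edgeR. None passed after adjustment over all miRNAs. The KO effect on miR-192-5p at P1 in the Pkd2 model minus that in the Pkd1 model was -1.22 on the log2 scale (SE 0.49, edgeR adjusted p = 0.661), with KO above WT in the Pkd1 model and below it in the Pkd2 model. Within the Pkd1 model the KO effect on miR-192-5p at P7 minus that at P1 was -1.16 (SE 0.48, edgeR adjusted p = 0.389). For miR-194-2-3p the KO effect at P3 minus that at P1 in the Pkd1 model was -1.39 (SE 0.40, edgeR adjusted p = 0.183), and it passed in 2 alternatives, DESeq2 (-1.29, adjusted p = 0.0446) and a fit of all 36 libraries (-1.36, edgeR adjusted p = 0.0389). For miR-215-5p the change of WT from P1 to P7 in the Pkd2 model minus that in the Pkd1 model was -4.01 (SE 1.66, edgeR adjusted p = 0.637).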

How the results depend on the processing

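Of 711 log2 fold changes recomputed under other settings with all libraries, 652 kept their direction and their side of the threshold, 27 no longer passed, 10 newly passed and 22 changed sign. The number of members past the threshold changed with the scaling and with single libraries. With library totals alone it was 0 in KO against WT at P7 in the Pkd2 model and 0 in WT at P7 against P1 in each model, against 4 in each with TMM, while with DESeq2 size factors it was 4, 4 and 5 and with totals without miR-10 it was 3, 3 and 4 (KO at P7 in the Pkd2 model, WT ageing in the Pkd1 and the Pkd2 model), and it was 1 for KO at P7 in the Pkd2 model when only the groups compared were fitted. The share of all miRNAs called is not given here for these settings, for the replicate block or for leaving out a library. The cause was not tested. The 4 members called in KO against WT at P7 in the Pkd2 model changed sign under none of the settings.

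The changes of sign were mostly of values near 0. In the Pkd1 model at P7, miR-192-3p went from 0.03 to -0.01514 (DESeq2 size factors), -0.02755 (library totals alone), -0.001464 (no filter), -0.01266 (DESeq2), -0.01711 (summed hairpin rows), -0.001264 (miR-10 covariate) and -0.008228 (only the groups compared). With the miR-10 covariate the values were also -0.001166 for miR-194-5p at P1 and -0.05581 for miR-192-5p at P3 in the Pkd1 model, 0.04234 for miR-194-2-3p at P7 in the Pkd1 model, 0.00631 for miR-802-3p at P3 and 0.1724 for miR-215-5p at P7 in the Pkd2 model. With library totals alone they were 0.05253 for miR-194-5p and 0.1939 for miR-802-3p at P3 in the Pkd1 model, 0.1172 for miR-192-3p at P3 in the Pkd2 model, and -0.2281 (Pkd1 model) and -0.02714 (Pkd2 model) for miR-194-2-3p in WT at P7 against P1. With library totals without miR-10 they were 0.02798 for miR-194-2-3p at P7 and -0.0424 for it in WT at P7 against P1 in the Pkd1 model, and 0.07958 for miR-192-3p at P3, 0.02648 for miR-802-3p at P3 and 0.07574 for miR-215-5p at P7 in the Pkd2 model.

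Leaving out 1 library at a time moved the number of members past the threshold for KO at P7 in the Pkd2 model between 0 and 4, with 0 without WT replicate 2, WT replicate 3 or KO replicate 3, and 34 of 624 log2 fold changes changed sign. In KO against WT of the Pkd1 model the ranges were -0.0414 to 0.54 for miR-192-3p at P1, and at P3 -0.44 to 0.39 for miR-192-5p, -0.5325 to 0.0904 for miR-194-5p, -1.02 to 2.85 for miR-215-5p, -0.54 to 0.0857 for miR-802-5p and -0.54 to 0.31 for miR-802-3p. At P7 they were -0.24 to 0.24 for miR-192-3p and -0.28 to 0.27 for miR-194-2-3p, and for miR-192-3p at P7 minus P1 -0.51 to 0.0715. In the Pkd2 model they were -0.0874 to 0.28 for miR-194-2-3p and -2.78 to 0.55 for miR-215-5p at P1, and at P3 -0.50 to 0.0866 for miR-192-5p, -0.23 to 0.21 for miR-192-3p, -0.29 to 0.0017 for miR-194-5p, -2.13 to 0.91 for miR-215-5p and -0.38 to 0.29 for miR-802-3p. At P7 the range was -0.27 to 0.0873 for miR-215-5p, and at P7 minus P1 -0.7855 to 0.039 for miR-192-3p and -0.64 to 2.69 for miR-215-5p. For miR-215-5p at P7 in the Pkd2 minus the Pkd1 model it was -0.0141 to 0.68. Of the ratios, miR-802-5p to miR-194-5p in KO of the Pkd1 model ran from -0.10 to 0.0172 and miR-215-5p to miR-192-5p in KO of the Pkd2 model from -0.33 to 0.30.

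Replicate numbers were not used to pair libraries in the main fits, and the labels do not say whether libraries of the same number belong together. Over 18 pairs of KO and WT libraries with the same number, the correlation of their deviations ran from -0.489 to 0.456, with 7 above 0.1. With 3 libraries a group this cannot settle whether they are paired. With the number as a replicate block, 3 members instead of 4 passed at P7 in the Pkd2 model, and among 28 results of that age and of WT ageing 2 calls were lost and none gained. Depth limits miR-192-3p, miR-194-2-3p and miR-215-5p, with as few as 14, 6 and 11 reads in a library, and with 3 libraries a group smaller changes of these are not excluded.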
